A study of Rattus norvegicus with 8 samples.

Results

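The nuclear genes for the respiratory chain and the ATP synthase were followed in laser-captured CA3 neurons of rats after brain injury. A gene was a member when its name on the array, without the endings _predicted or _mapped, began with Ndufa, Ndufb, Ndufc, Ndufs, Ndufv, Uqcr, Cox4, Cox5, Cox6, Cox7, Cox8, Atp5, Sdha, Sdhb, Sdhc or Sdhd. This gave 71 of the 18365 gene names on the array, read by 81 probes: 32 genes of complex I, 4 of complex II, 5 of complex III, 16 of complex IV and 14 of the ATP synthase. The naming rule also took in 6 genes that do not encode a subunit, or whose probe may not read one. Ndufaf1 is an assembly factor of complex I, Cox7a2l a factor of supercomplexes and Atp5s a factor that regulates the ATP synthase. Cox4nb now has the symbol Emc8 and shares only its prefix with complex IV, Cox6c1 is a pseudogene in the reference, and the probe of Cox6b is described on the array as that of another gene.

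Complexes I, III and IV pump protons across the inner mitochondrial membrane as electrons pass from NADH to oxygen, complex II feeds in electrons from succinate, and the ATP synthase uses the proton gradient to make ATP. Most subunits are encoded in the nucleus and imported, and a small number come from mitochondrial DNA. Hippocampal pyramidal neurons depend on this pathway for the ATP that drives their ion pumps.

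The arrays compared neurons of male Sprague-Dawley rats at 24 hours after moderate fluid percussion injury, after sham injury or with no treatment (naïve). Dying neurons were those of injured rats that took up Fluoro-Jade, a stain for degenerating neurons, and surviving neurons were their neighbours without stain. Each pool of injured rats held about 600 captured neurons from at least 3 animals, so that such an array averages over animals. Survival is read from a stain at a single time. RNA was amplified in 2 rounds and hybridised to 8 single-colour Agilent arrays, 2 for each of the 4 groups. Naïve and sham arrays lay on slide 1 and surviving and dying arrays on slide 2, scanned and extracted apart under different versions of the extraction protocol. Injury and slide therefore cannot be told apart, whereas surviving against dying neurons and sham against naïve neurons each lie within 1 slide. The median processed intensity of an array, by which its probes were divided, was 27.2 and 22.7 in naïve neurons, 16.5 and 16.4 in sham, 52.2 and 48.2 in surviving neurons and 19.2 and 52.6 in dying neurons.

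The brightest probe stood for each gene, and in 65 of 71 cases it was well above background on each of the 8 arrays. On both arrays of a group, 71 genes were well above background in naïve, in sham and in surviving neurons, and 65 in dying neurons. Of the 6 others, Ndufs1 and Cox8h had a dying array not well above background, and 4 lack a spot. A non-uniform spot was left out on dying replicate 1 for Uqcrh, Atp5e and Atp5g1 and on dying replicate 2 for Ndufb7, so that these 4 genes have a single dying value. All values below are log2 of the scaled signal, and all 71 genes were tested with limma in each comparison. With 2 arrays against 2, an exact permutation test of a single value could not go below a p of 0.333, so that medians over genes are given without a test. The p-values measure only the spread between these samples, and in pools of cells fewer cells of a type and less RNA per cell cannot be told apart.

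Relative to each gene's mean in sham, the median over the 71 genes was -0.58 and -0.04 on the naïve arrays and 0.17 and -0.17 on the sham arrays. It was -0.53 and -0.74 on the surviving arrays and -0.76 and -1.42 on the dying arrays. As scaled here, all 4 arrays of injured rats thus lay below both sham arrays, while dying replicate 1 was close to surviving replicate 2 and dying replicate 2 was the lowest. Over 15543 named genes above background on any array, the same medians were -0.59 and -0.31 in naïve neurons, -0.26 and -0.46 in surviving neurons and -0.60 and -0.67 in dying neurons. The spread between the dying replicates was the widest of the groups: over 67 member genes with both values, replicate 1 minus replicate 2 had a standard deviation of 0.95, against 0.53 in naïve neurons, 0.34 in sham and 0.46 in surviving neurons over all 71 genes.

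**Figure D1:**
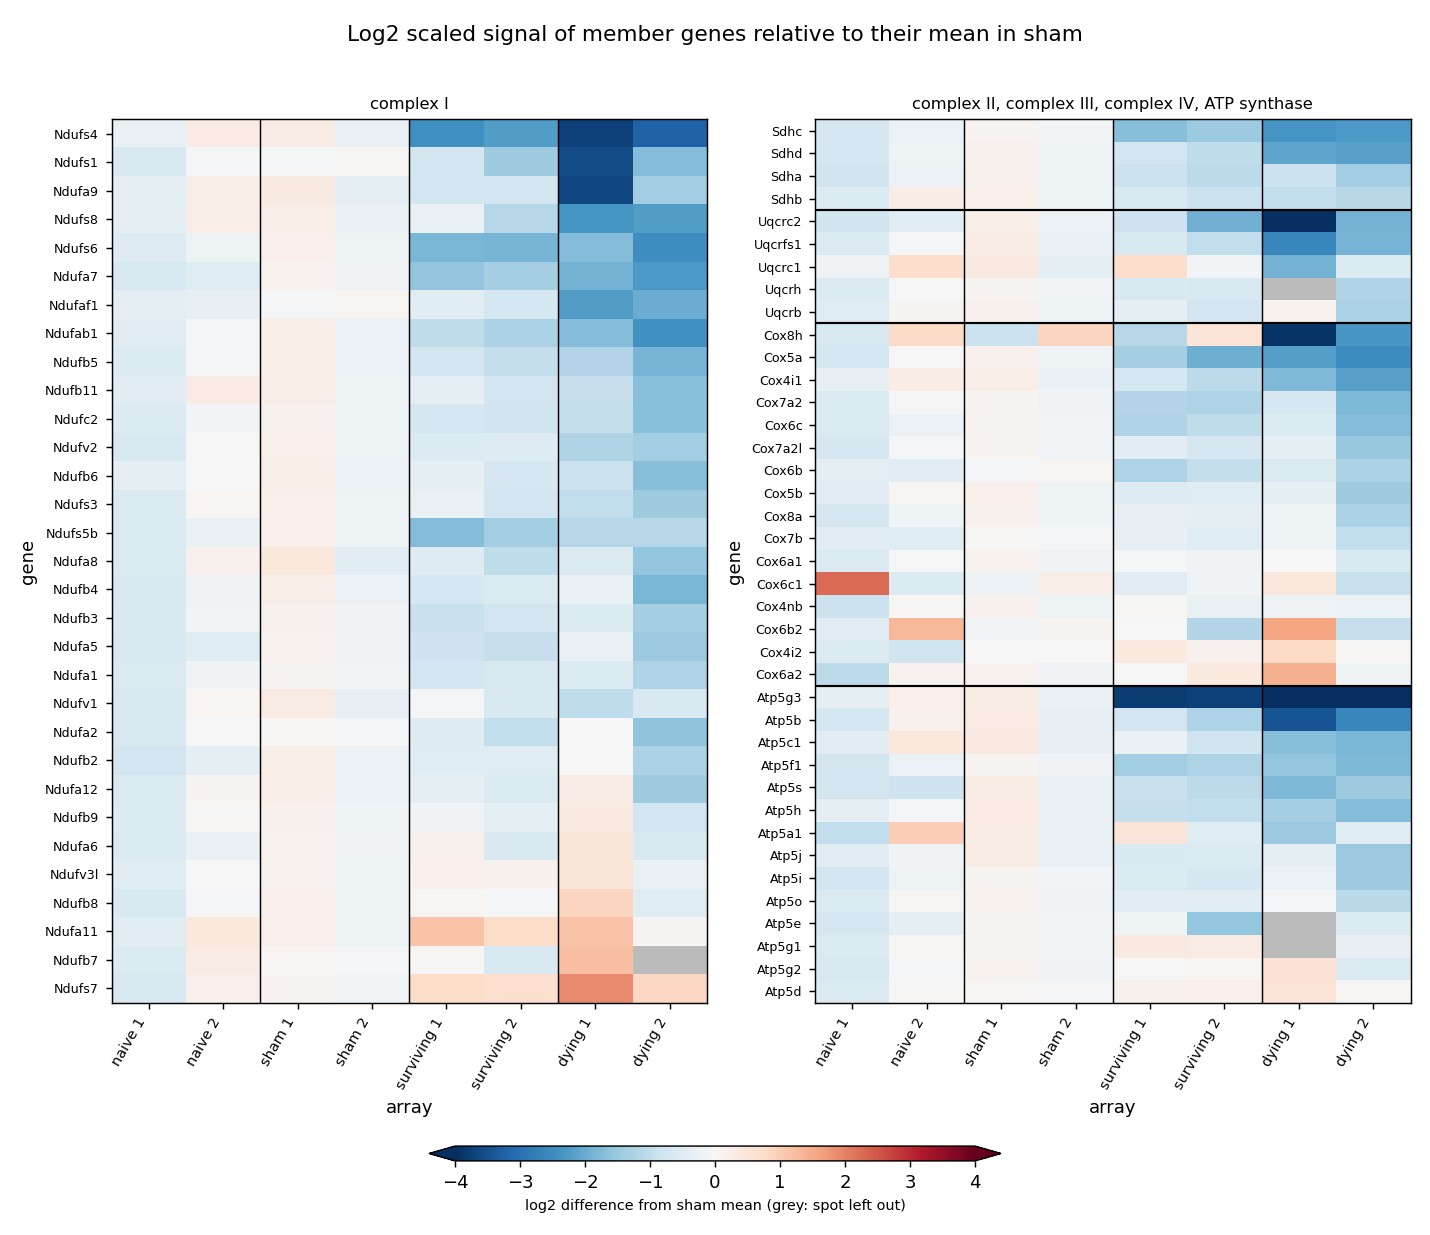
Log2 scaled signal of 70 of the 71 genes (vertical axis) on each of the 8 arrays (horizontal axis), relative to the gene's mean in sham, with genes of a complex ordered by dying minus sham. In the dying columns the means lie furthest below sham (blue) for Atp5g3 (-5.14) and Ndufs4 (-3.48), while Ndufs7 is red there (1.35), and the gap to sham of most genes shifts when arrays are scaled another way.

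In dying against sham neurons, 22 of the 71 genes passed an adjusted p of 0.05, or 31.0%, and all 22 were lower in dying neurons. Of all probes tested, 40.8% passed, of all named genes with 1 probe each 41.5%, and 29.2% of named genes passed as lower. The members' share of lower genes was thus close to that of named genes as a whole. The calls held 9 of 32 genes of complex I, 2 of 4 of complex II, 2 of 5 of complex III, 3 of 16 of complex IV and 6 of 14 of the ATP synthase. Leaving out sham replicate 1 left 2 of the 22, Ndufs4 and Atp5g3, and leaving out sham replicate 2 left 4, Ndufs4, Sdhc, Atp5b and Atp5g3.

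Surviving neurons differed from sham at this threshold in 4 of the 71 genes, or 5.63%, all lower: Atp5g3, Ndufs4, Ndufs6 and Sdhc. The corresponding share was 16.3% of all probes and 14.4% of named genes, and 8.11% of named genes passed as lower. The calls changed with the scaling: 2 were lower and 1 higher at the 75th percentile, 2 lower and 2 higher by quantiles and 2 lower and 5 higher with probes above background on all arrays, the lower genes being Atp5g3 and Ndufs4 each time, while Ndufs6 and Sdhc did not pass. RefSeq probes kept 3 of the 4, without Sdhc, and normexp 0. The count was 0 without sham replicate 1 or without either surviving array, 1 without sham replicate 2, 2 without either naïve array and 9 without either dying array. Both comparisons use the same sham arrays, and the values for a gene in surviving and in dying neurons are therefore given side by side and not as separate evidence.

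Between surviving and dying neurons, 0 of the 71 genes passed with limma (smallest adjusted p 0.140), and 12 had an unadjusted p under 0.05. None of the 27391 probes tested passed either, a background of 0%, with 5640 at an unadjusted p under 0.05 and a smallest adjusted p of 0.0899. Surviving neurons had the higher mean in 56 members and the lower mean in 15. Both surviving arrays lay above every dying array with a value in 31 members and below it in 3. This held for 36.0% and 12.7% of named genes tested. Uqcrh and Atp5g1 among the 31 and Ndufb7 among the 3 have a single dying value. The median difference, surviving minus dying, was 0.33 over the members and 0.32 over the named genes. Sham against naïve neurons gave 0 member genes past the threshold with limma and 0 at an unadjusted p under 0.05. That comparison called 0% of 20676 probes, with 789 at an unadjusted p under 0.05.

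**Figure D2:**
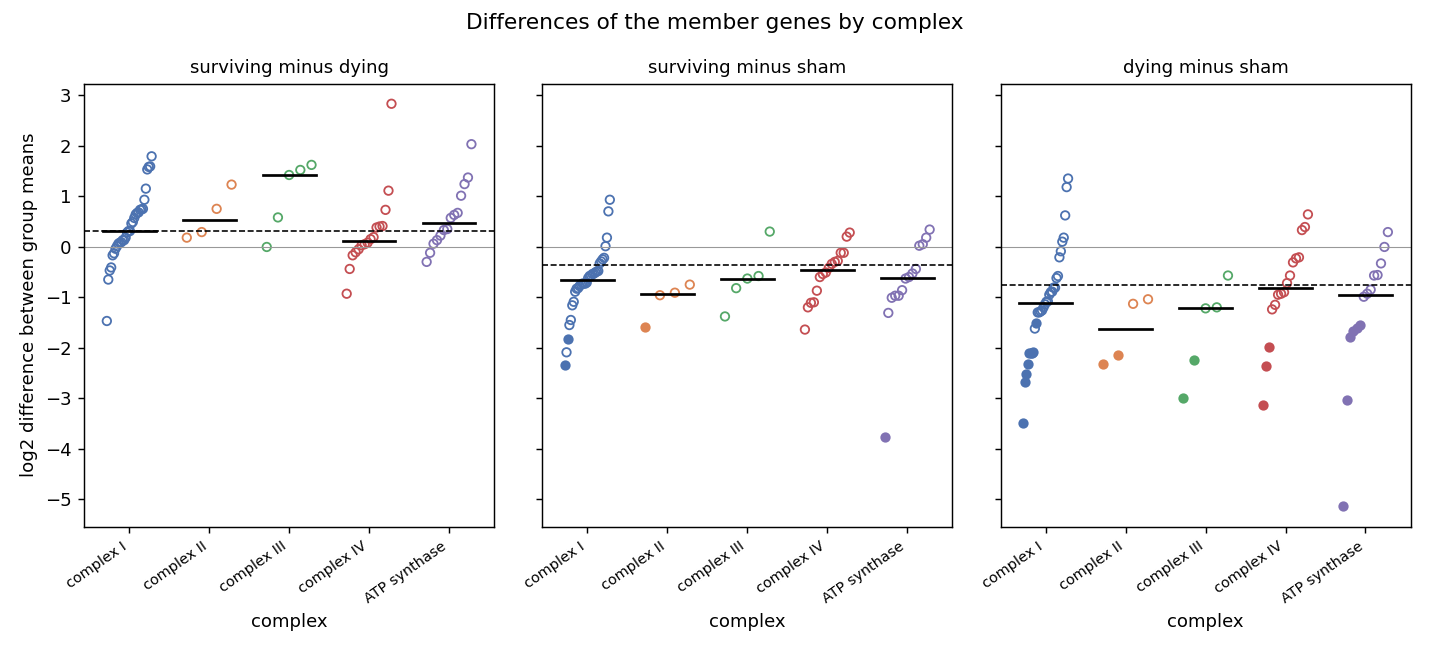
Log2 differences between group means (vertical axis) of the member genes by complex (horizontal axis) in 3 comparisons, with filled points past an adjusted p of 0.05, bars at the median of a complex and a dashed line at the median of named genes. Surviving minus dying has no filled point and the median of complex III (1.42) stands highest, while filled points number 4 against sham for surviving and 22 for dying neurons, all below 0, and with arrays scaled to RefSeq probes the medians of complexes I and IV fall below 0 in surviving minus dying.

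The size of the members' median against sham depended on how arrays were scaled, and so did its sign in surviving neurons. In place of the median of all probes, scaling to the 75th percentile moved the median difference of named genes by 0.78 in surviving against sham and by 0.73 in dying against sham. Quantile normalization moved these by 0.68 and 0.83, and scaling to probes above background on all arrays by 0.97 and 1.01. Scaling to RefSeq probes moved them by -0.19 and 0.16, and background correction by normexp, with an offset of 50, by 0.56 and 0.25. That offset was added before scaling, where median processed intensities of the arrays ran from 16.4 to 52.6. Effects of the offset and of the correction itself were not told apart. The members' median in surviving against sham was -0.62 as scaled here, but 0.16, 0.04, 0.35, -0.81 and 0.46 under these 5 alternatives. In dying against sham it was -1.08, and -0.35, -0.20, -0.07, -0.92 and -1.29 under the same alternatives.

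Relative to the median of named genes, the members' median was -0.26 in surviving neurons and -0.32 in dying neurons against sham. Scaling to the 75th percentile, to probes above background or to RefSeq probes moves all genes of an array alike and by construction leaves this value as it is. Quantile normalization gave -0.28 and -0.27, and normexp gave 0.26 and -0.78. Surviving minus dying stood at 0.01 relative to named genes as scaled here, -0.05 after quantile normalization and 1.10 after normexp. Before that subtraction, the medians of surviving minus dying changed sign with RefSeq probes, to -0.02 over all members, -0.04 in complex I and -0.23 in complex IV, and kept their sign in complexes II (0.17) and III (1.07) and the ATP synthase (0.11). Against sham, complex II kept a negative median in surviving neurons after scaling to the 75th percentile (-0.15) and by quantiles (-0.21), where the other complexes turned positive, and in dying neurons all 5 stayed negative under both. With probes above background on all arrays, complex IV (0.20) and the ATP synthase (0.05) turned positive in dying neurons too, and in surviving neurons all 5 did so, as after normexp.

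**Figure D3:**
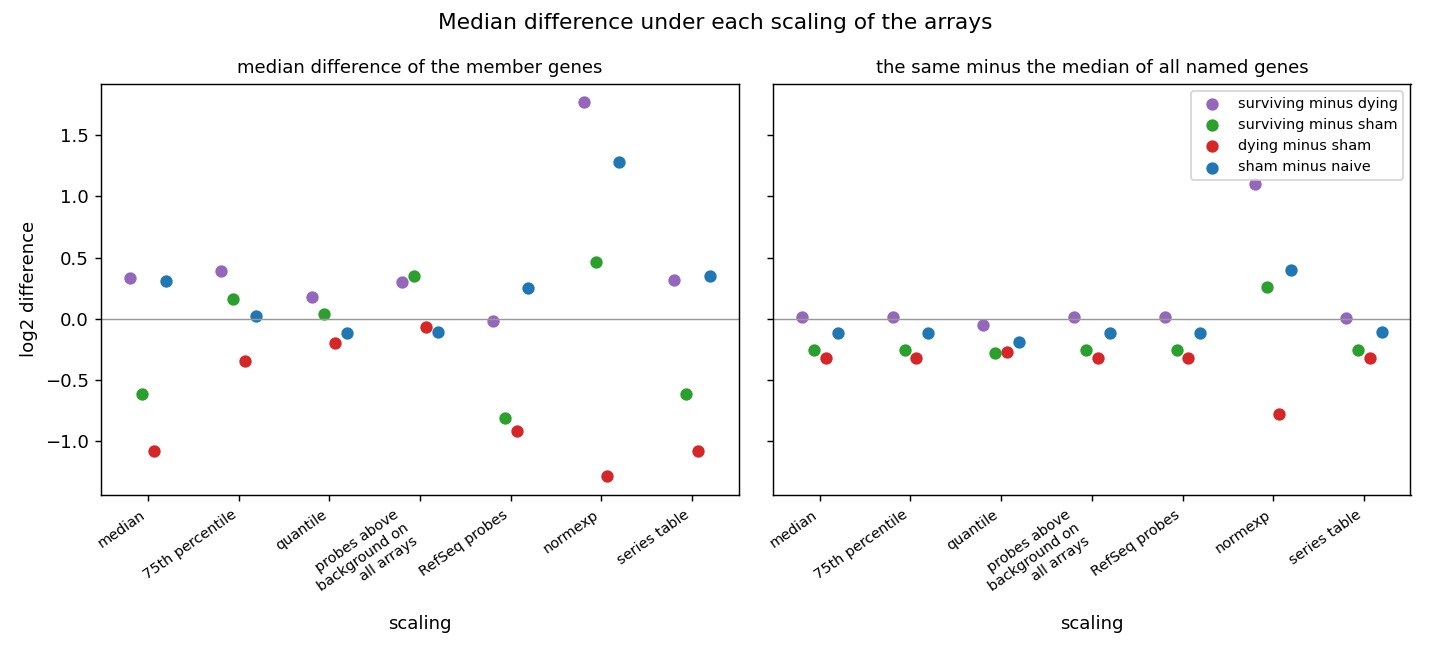
Median log2 difference of the 71 genes (left) and the same minus the median of named genes (right) in 4 comparisons under 7 scalings of the arrays (horizontal axis). On the left, surviving minus sham runs from -0.81 to 0.46, while on the right, where scalings by a constant per array give the same value by construction (-0.26), quantiles give -0.28 and normexp 0.26.

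Calls shifted with the scaling as well. Of the 22 genes that fell in dying neurons, 13 passed as lower after scaling to the 75th percentile, beside 3 genes that then passed as higher, Ndufs7, Ndufa11 and Ndufb7. Scaling to probes above background on all arrays kept 13 of the 22 with 7 other genes higher, quantile normalization kept 11 with 7 higher, scaling to RefSeq probes kept 17 with 0 higher, and normexp kept 0. Ndufs8, Ndufab1, Ndufs4, Ndufaf1, Sdhc, Sdhd, Cox5a, Atp5b and Atp5g3 passed as lower under each of these except normexp.

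RefSeq start sites in the rat build GRCr8 were found for 61 of the 71 genes. The window from 250 bases before to 50 after the start was searched on both strands for 3 motifs known from genes of the respiratory chain: the site of NRF-1 (GCGCA, any base, then GCGC), the ETS core CCGGAAG and the YY1 core AAGATGG. At least 1 of them was found in 37 of 61 members, or 60.7%, and in 18.0% of all 33469 promoters. NRF-1 was found in 23.0% of members against 4.25% of all promoters, the ETS core in 31.1% against 8.75% and the YY1 core in 23.0% against 7.01%. Among genes that fell in dying neurons, 12 of 21 promoters held a motif, and among the other members 25 of 40. A match is a description of these letters and not of a bound site. The 60 bases before the start are shown for the 5 genes that fell in dying neurons and hold a motif within them, with the matching letters on either strand in capitals: NRF-1 in Ndufs6, ETS in Ndufs8, Ndufaf1 and Sdhd, and ETS followed by YY1 in Uqcrc2.
Ndufs6, chr1:31797340-31797399, plus strand: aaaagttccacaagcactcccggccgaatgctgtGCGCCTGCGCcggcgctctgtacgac
Ndufs8, chr1:210573699-210573758, minus strand: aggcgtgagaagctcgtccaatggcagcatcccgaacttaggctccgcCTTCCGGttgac
Ndufaf1, chr3:127104021-127104080, minus strand: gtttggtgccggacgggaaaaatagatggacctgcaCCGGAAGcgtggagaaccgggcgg
Sdhd, chr8:59850642-59850701, minus strand: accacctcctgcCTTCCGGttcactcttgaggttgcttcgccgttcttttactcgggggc
Uqcrc2, chr1:184599180-184599239, plus strand: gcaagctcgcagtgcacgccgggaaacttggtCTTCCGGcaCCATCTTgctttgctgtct

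Complex I takes electrons from NADH through its core subunits, of which 7 are nuclear. Ndufs8, an iron-sulfur subunit, had log2 scaled signals of 7.29 and 6.77 in sham, 6.72 and 5.90 in surviving neurons and 4.63 and 4.80 in dying neurons. The dying arrays lay below all other arrays, and the gene fell by 2.32 ± 0.52 (SE) against sham (adjusted p 0.0123, 2 of 2 dying arrays lower). In Ndufs1, the largest iron-sulfur subunit, the values were 1.81 and 1.92 in sham, 1.13 and 0.43 in surviving neurons and -1.73 and 0.13 in dying neurons. It fell by 2.67 ± 0.67 in dying neurons (adjusted p 0.0177), with 1 of 2 dying arrays well above background. Both genes were higher on both surviving than on both dying arrays, by 1.59 and 1.58 in the mean, and neither difference passed (adjusted p 0.163 and 0.236).

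Ndufs7, which carries the iron-sulfur cluster nearest to the quinone, ran the other way. Its values were 8.91 and 9.75 in naïve neurons, 9.67 and 9.45 in sham, 10.30 and 10.22 in surviving neurons and 11.44 and 10.39 in dying neurons. All 4 arrays of injured rats lay above both sham arrays, yet the difference of 1.35 ± 0.55 in dying neurons did not pass (adjusted p 0.0788). It passed as higher after scaling to the 75th percentile (2.08), after quantile normalization (2.15) and after scaling to probes above background on all arrays (2.36).

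Among further core genes, dying minus sham was -1.20 for Ndufs3, -0.81 for Ndufv1, which binds NADH, and -1.28 for Ndufv2, and none passed. Surviving minus dying was 0.67, 0.49 and 0.74 for the same genes, with both surviving arrays at or above both dying arrays in each. Over the 7 core genes the median of surviving minus dying was 0.67, and over the 24 accessory genes of complex I it was 0.23. By array and relative to sham, the core genes stood at -1.21 and -1.39 in dying neurons and the accessory genes at -0.55 and -1.49, so that the gap between them lay on dying replicate 1 and was absent on replicate 2.

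Among the accessory subunits, Ndufs4, which stabilises the NADH-binding module, showed the widest gap. Its values were 3.85 and 4.45 in naïve neurons, 4.44 and 3.82 in sham, 1.68 and 1.91 in surviving neurons and 0.40 and 0.89 in dying neurons. The groups did not overlap except for naïve and sham. Ndufs4 fell by 2.34 ± 0.50 in surviving neurons (adjusted p 0.0229) and by 3.48 ± 0.50 in dying neurons (adjusted p 0.00342), lower on 2 of 2 arrays in each. Surviving minus dying was 1.15 ± 0.50 and did not pass (adjusted p 0.241).

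Ndufs6, a zinc-binding accessory subunit whose promoter letters are printed above, had 8.47 and 8.05 in sham, 6.44 and 6.41 in surviving neurons and 6.53 and 5.77 in dying neurons. It fell by 1.83 ± 0.48 in surviving (adjusted p 0.0410) and by 2.11 ± 0.48 in dying neurons (adjusted p 0.0131), while surviving and dying arrays overlapped. Ndufa7 had 8.10 and 7.80 in sham, 6.36 and 6.63 in surviving neurons and 6.05 and 5.66 in dying neurons, and fell by 2.10 ± 0.45 in dying neurons (adjusted p 0.0106). The assembly factor Ndufaf1 stood apart from these in its surviving values: it had 2.23 and 2.38 in sham, 1.85 and 1.62 in surviving neurons and 0.06 and 0.34 in dying neurons. Its fall by 2.10 ± 0.44 in dying neurons passed (adjusted p 0.00953), and surviving minus dying, 1.53 ± 0.44, did not (adjusted p 0.141).

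Ndufab1, the mitochondrial acyl carrier protein, Ndufa9 and Ndufb5 were also past the threshold in dying neurons, at -2.08, -2.52 and -1.51 (adjusted p 0.0141, 0.0300 and 0.0407). Of Ndufa9, the low mean came from 4.24 on dying replicate 1, against 6.47 on replicate 2 and 7.15 and 7.14 in surviving neurons. Ndufa11, a subunit of the membrane arm, had 6.99 and 6.61 in sham, 7.94 and 7.52 in surviving neurons and 7.93 and 6.90 in dying neurons. Both surviving arrays lay above both sham arrays, by 0.93 in the mean (adjusted p 0.263), and in surviving against sham, Ndufa11 passed as higher after scaling to the 75th percentile (1.71), after quantile normalization (1.80) and after scaling to probes above background on all arrays (1.90). The lowest value of surviving minus dying among all members was -1.47 for Ndufb7, which rests on dying replicate 1 alone because the other spot was left out. Across the 32 genes of complex I, dying minus sham ran from -3.48 to 1.35.

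Complex II oxidises succinate and has no subunit from mitochondrial DNA. Its membrane anchors stood lower in dying neurons than its catalytic subunits did relative to sham. The anchor gene Sdhc had 8.31 and 8.07 in sham, 6.48 and 6.74 in surviving neurons and 5.82 and 5.90 in dying neurons, without overlap between these groups. Sdhc fell by 1.58 ± 0.45 in surviving (adjusted p 0.0490) and by 2.33 ± 0.45 in dying neurons (adjusted p 0.00744). The other anchor gene, Sdhd, had 10.08 and 9.73 in sham, 9.13 and 8.87 in surviving neurons and 7.80 and 7.73 in dying neurons. Its surviving values lay between those of sham and dying neurons, and it fell by 2.14 ± 0.46 in dying neurons (adjusted p 0.0104).

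The flavoprotein gene Sdha and the iron-sulfur gene Sdhb were at -1.13 and -1.04 in dying against sham (adjusted p 0.0889 and 0.118) and at -0.96 and -0.75 in surviving against sham. Surviving minus dying was 0.75 for Sdhc, 1.23 for Sdhd, 0.18 for Sdha and 0.29 for Sdhb. Whether anchors and catalytic subunits differ was not tested. The median over the 4 genes was 0.52, or 0.20 above named genes.

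Complex III passes electrons from ubiquinol to cytochrome c. Among the roles compared, its 3 core genes found by the naming rule had the highest median of surviving minus dying, 1.52. Cyc1, a complex III gene outside that rule, had 0.74 (adjusted p 0.458), with dying minus sham at -0.92 (adjusted p 0.183). Uqcrc2, a core protein, had 9.42 and 8.96 in sham, 8.36 and 7.26 in surviving neurons and 5.07 and 7.31 in dying neurons. The dying replicates lay 2.24 apart, and dying replicate 2 overlapped the surviving arrays. Uqcrc2 fell by 3.0 ± 0.77 against sham (adjusted p 0.0190). Uqcrfs1, the Rieske iron-sulfur protein, had 9.37 and 8.77 in sham, 8.43 and 8.07 in surviving neurons and 6.45 and 7.21 in dying neurons, which were below all others, and fell by 2.24 ± 0.51 (adjusted p 0.0131).

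Uqcrc1, the other core protein, had 5.99 and 5.29 in sham, 6.34 and 5.53 in surviving neurons and 3.74 and 5.09 in dying neurons. Surviving and sham arrays overlapped, and dying minus sham, -1.22, did not pass (adjusted p 0.152). Surviving minus dying was 1.62 for Uqcrc2, 1.52 for Uqcrc1 and 1.42 for Uqcrfs1, at adjusted p of 0.279, 0.233 and 0.187. By dying array, the median of the 3 core genes relative to sham was -2.62 on replicate 1 and -1.86 on replicate 2. The accessory genes gave -0.0048 for Uqcrb and 0.58 for Uqcrh, whose spot on dying replicate 1 was left out. The median of complex III was 1.42, or 1.10 above named genes. The latter was 0.83 after quantile normalization and 1.87 after normexp.

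Complex IV reduces oxygen, and several of its nuclear subunits exist as isoforms of different tissues. Cox5a, a subunit on the matrix side, had 10.63 and 10.27 in sham, 9.12 and 8.51 in surviving neurons and 8.25 and 7.92 in dying neurons. These groups did not overlap, and Cox5a fell by 2.37 ± 0.50 in dying neurons (adjusted p 0.00997). At -1.64, surviving against sham did not pass (adjusted p 0.0586). Cox4i1, the common form of subunit IV, had 6.87 and 6.31 in sham, 5.90 and 5.54 in surviving neurons and 4.81 and 4.41 in dying neurons, and fell by 1.98 ± 0.49 in dying neurons (adjusted p 0.0173).

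The fall of Cox4i1 was not shared by the other form of subunit IV as scaled here. Cox4i2, the form known from lung, had 4.84 and 4.80 in sham, 5.21 and 4.99 in surviving neurons and 5.57 and 4.86 in dying neurons, with dying minus sham at 0.39. Cox6a1, the form of most tissues, had 12.46 and 12.18 in sham, 12.24 and 12.17 in surviving neurons and 12.33 and 11.70 in dying neurons, and all groups overlapped. Cox6a2, the form of heart and muscle, was at 5.80 on dying replicate 1 and at 4.21 on replicate 2, against 4.51 and 4.22 in sham. Differences between the forms were not tested.

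Dying minus sham was -1.24 for Cox7a2, -0.72 for Cox8a and -0.90 for Cox5b, and none passed. Cox7a1 and a probe under the name Cox8b were not found, Cox8h being the older name of Cox8b, the muscle form. Cox8h had the highest value of surviving minus dying among all members, 2.83 ± 0.92, which did not pass (adjusted p 0.162). This value rests on dying values of -2.94 and -1.34, of which 1 of 2 was well above background, so that its size and rank are uncertain. Cox6b2, a form of testis, ran from 0.58 to 3.09 within the dying pair, and its surviving minus dying of -0.93 rests on replicate 1. Over the 16 genes of complex IV the median of surviving minus dying was 0.12, or -0.20 relative to named genes. On dying replicate 1 the median relative to sham was -0.28 and on replicate 2 it was -1.27.

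The ATP synthase couples the proton gradient to ATP through its F1 head, its c ring and a stalk. Atp5b, the catalytic beta subunit, had 8.03 and 8.89 in naïve neurons, 9.07 and 8.39 in sham, 7.97 and 7.48 in surviving neurons and 5.27 and 6.12 in dying neurons. The dying arrays were below all others by at least the distance between the dying replicates. Atp5b fell by 3.03 ± 0.56 in dying neurons (adjusted p 0.00677), and surviving minus dying, 2.03 ± 0.56, gave the smallest adjusted p of any member in that comparison, 0.140. In the gamma subunit gene Atp5c1, the values were 8.81 and 8.12 in sham, 8.20 and 7.67 in surviving neurons and 6.75 and 6.63 in dying neurons, and it fell by 1.78 ± 0.52 (adjusted p 0.0302).

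The other genes of the F1 head did not pass as scaled here. Atp5a1, the alpha subunit, had 5.74 and 5.16 in sham, 5.98 and 4.97 in surviving neurons and 3.97 and 4.96 in dying neurons, with dying replicate 2 just under surviving replicate 2. Dying minus sham was 0.29 for Atp5d and -0.56 for Atp5e, the latter with 1 dying array. The F1 head thus held both Atp5b, low in dying neurons, and Atp5d, with both dying arrays at or above both sham arrays, 12.06 and 11.57 against 11.57 and 11.47. Atp5d passed as higher in dying neurons by quantiles and with probes above background on all arrays, and in surviving neurons with the latter.

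The c subunit is made from 3 genes, Atp5g1, Atp5g2 and Atp5g3, which encode the same mature protein with different import sequences. Atp5g3 had 7.85 and 8.43 in naïve neurons, 8.52 and 7.95 in sham, 4.42 and 4.50 in surviving neurons and 2.64 and 3.55 in dying neurons. It was the member with the largest gap to sham in both groups, without overlap, and fell by 3.77 ± 0.52 in surviving (adjusted p 0.00657) and by 5.14 ± 0.52 in dying neurons (adjusted p 0.00142). Atp5g2 had 11.78 and 11.50 in sham, 11.66 and 11.72 in surviving neurons and 12.21 and 11.06 in dying neurons, with these 3 groups overlapping. In Atp5g1 the values were 10.66 and 10.42 in sham, 10.89 and 10.87 in surviving neurons and 10.21 on the dying array that could be used. The fall of Atp5g3 was thus not shared by the genes for the same protein as scaled here, and whether the 3 genes differ was not tested.

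Of the stalk and membrane part, Atp5f1 fell by 1.66 ± 0.45 and Atp5h by 1.54 ± 0.47 in dying neurons (adjusted p 0.0229 and 0.0347). Atp5i, Atp5j and Atp5o stood at -0.85, -0.93 and -0.57 and did not pass. The regulatory factor Atp5s fell by 1.61 ± 0.46 (adjusted p 0.0276). Its values of 3.73 and 3.63 in naïve neurons and 4.75 and 4.17 in sham also gave the highest value of sham minus naïve among the members, 0.78, at an adjusted p of 0.930. Cox4i2 and Uqcrc2 followed at 0.68 and 0.60, and the lowest were Cox6c1, Cox6b2 and Uqcrc1 at -0.86, -0.44 and -0.29. Over all 71 genes sham minus naïve had a median of 0.31, against 0.42 for named genes.

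**Figure D4:**
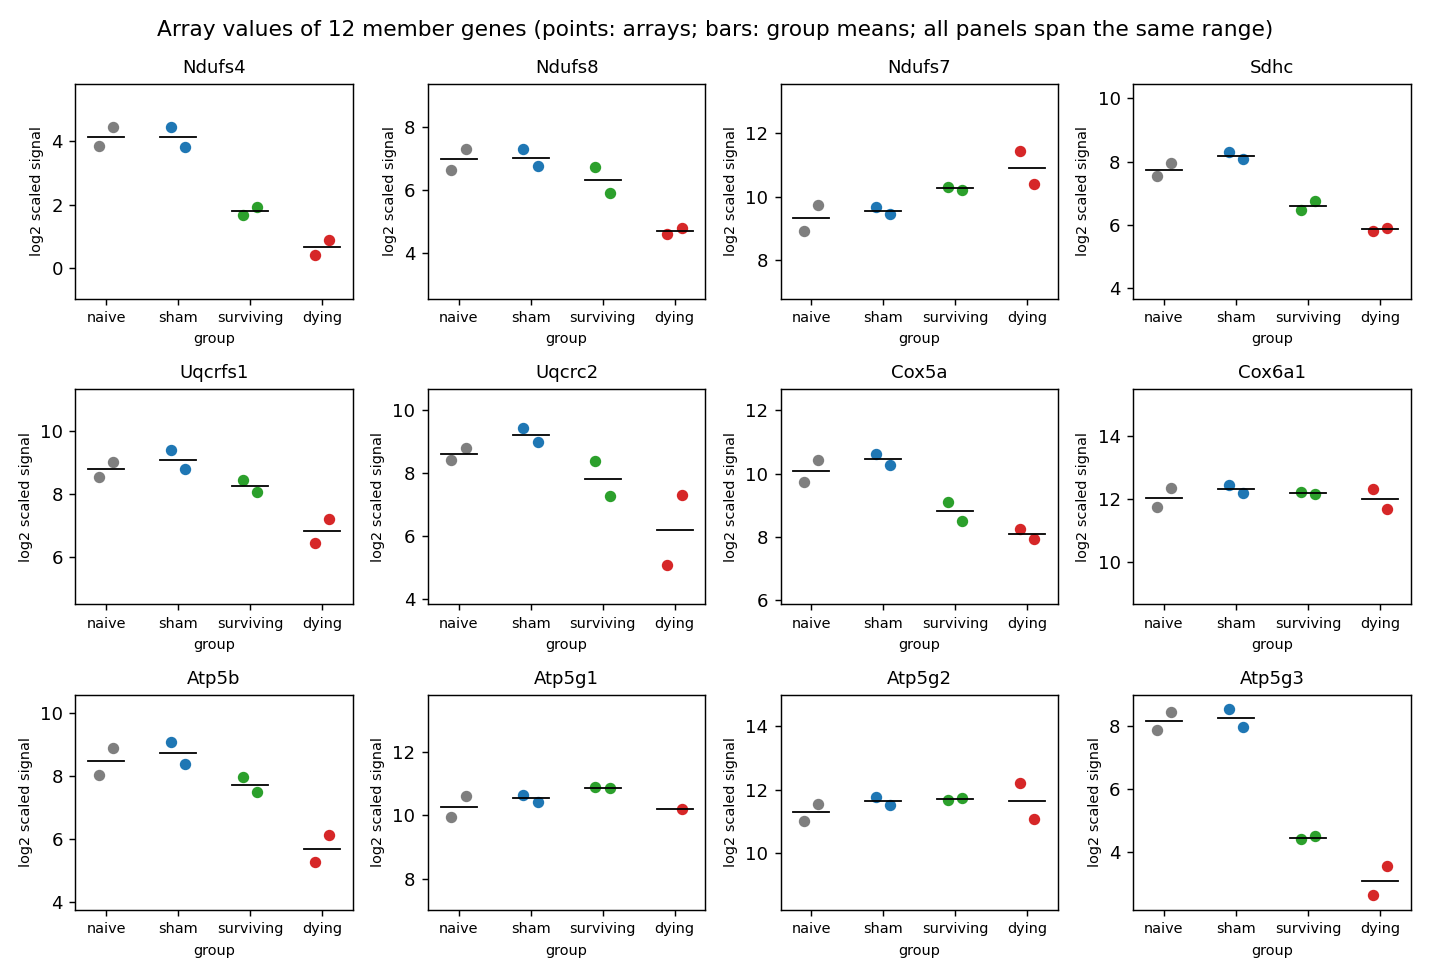
Log2 scaled signal (vertical axes, all of the same span) of 12 genes on each array by group (horizontal axes), with points for arrays and bars for group means. Atp5g3 drops from 8.52 and 7.95 in sham to 2.64 and 3.55 in dying neurons, while sham, surviving and dying arrays overlap in Atp5g2 and Cox6a1 and Ndufs7 stands higher in injured rats, with gaps to sham that shift with the scaling.

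The gap between surviving and dying neurons was not the same for both dying arrays. Against dying replicate 1 alone, with replicate 2 left out, the members' median was -0.13, and against replicate 2 alone it was 0.67. For complex I these were -0.18 and 0.81 and for complex IV -0.21 and 0.61, so that both changed sign. Complex II kept 0.51 to 0.58 with any array left out and the ATP synthase 0.29 to 0.65. Complex III ranged from 0.71 to 2.0. With dying replicate 2 left out and the single array taken to vary like the other groups, 5 members passed as higher in surviving neurons: Ndufs1 (2.51), Ndufa9 (2.91), Ndufaf1 (1.67), Uqcrc2 (2.74) and Atp5b (2.45). The value for Ndufs1 is against -1.73 on dying replicate 1, where it was not well above background, so that its size is uncertain. In that fit 19.2% of all 28209 probes passed.

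A filter by fold asked that a gene be well above background on each of the 4 arrays of injured rats and that replicates lie within 1.5 times each other. Of 65 members above background, 57 had surviving replicates within this limit and 21 dying replicates. Past a ratio of 2, 5 genes remained, all higher in surviving neurons, where 4.53% of named genes passed: Ndufs4 (ratio 2.19), Ndufaf1 (2.89), Sdhd (2.36), Cox4i1 (2.15) and Atp5c1 (2.41). Of complex III, 0 of 4 genes had dying replicates within the limit. Without dying replicate 1 the count was 11 genes and without dying replicate 2 it was 10, the limit then applying to the surviving pair alone.

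**Figure D5:**
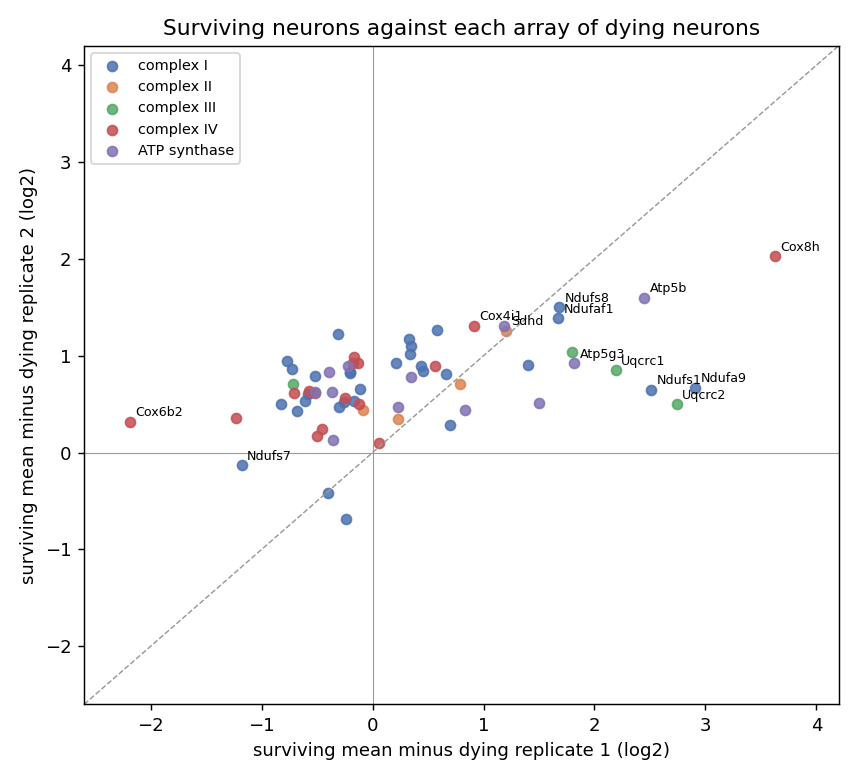
Surviving mean minus dying replicate 1 (horizontal axis) and minus dying replicate 2 (vertical axis), both in log2, for the member genes, coloured by complex, with a dashed line of equal values. Atp5b lies at 2.45 and 1.60, whereas Uqcrc2, Ndufa9 and Ndufs1 lie at 2.51 to 2.91 on the horizontal axis and at 0.50 to 0.67 on the vertical, and many genes lie left of 0.

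Values of a gene also depended on the probe. Among the 8 genes with several probes, 6 had a probe past the threshold in dying against sham and another that was not, 2 had none, and 0 had all probes past it. Another probe of Cox5b than the brightest (A_43_P12860) stood at -2.31 in dying neurons (adjusted p 0.00854) and -1.69 in surviving neurons (adjusted p 0.0456), where the brightest gave -0.90 and -0.51. Uqcrb gave -2.16 (adjusted p 0.0168) with A_44_P356291 against -0.57 with the brightest. Of the probes for Ndufs8, the one not used gave -1.18 (adjusted p 0.148) beside -2.32. Ndufa9 probes differed in sign between surviving and dying neurons, at 1.79 and -0.45.

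Ndufc2 probes disagreed as well. The brightest gave -1.30 in dying against sham (adjusted p 0.0608), and another, A_44_P356344, had 4.33 and 4.22 in sham, -1.05 and -1.65 in surviving neurons and -2.46 and -2.42 in dying neurons. No dying array was well above background there, so that the signal was at least 63.5-fold lower than in sham (adjusted p 0.000582), bounded by the lowest signal well above background on each array. Cox8h probes opposed each other. The brightest fell by 3.13 ± 0.92 in dying neurons (adjusted p 0.0293), with 1 of 2 dying arrays well above background, while A_44_P689395, not well above background in sham, was higher by at least 2.78-fold in dying (adjusted p 0.00315) and by at least 2.42-fold in surviving neurons (adjusted p 0.00785).

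Other mitochondrial genes, read from written lists, were lower against sham where they passed, as scaled here, and were not compared under other scalings. Of electron carriers, complex III genes and assembly factors outside the naming rule, 16 of 24 were found and 13 tested. Among these, 6 passed as lower in dying against sham and 2 in surviving against sham. Cycs, cytochrome c itself, had 10.79 and 10.27 in sham, 8.55 and 8.54 in surviving neurons and 7.10 and 7.54 in dying neurons, and fell by 3.21 in dying neurons (adjusted p 0.00344). Carriers and porins gave 5 of 10 lower in dying and 1 in surviving neurons, with Vdac1 at -3.68 (adjusted p 0.00376). Citric acid cycle and pyruvate dehydrogenase genes gave 10 of 17 and 2, with Pdha1 at -4.18 (adjusted p 0.00158).

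Mitochondrial ribosomal proteins gave 23 of 60 lower in dying neurons and 1 in surviving neurons. Among regulators of mitochondrial gene expression, 5 of 11 were lower in dying neurons and 1 in surviving neurons. Of all named genes, 29.2% passed as lower in dying and 8.11% in surviving neurons. Those named were Tfb1m at -2.91, Tfb2m at -2.49 and Tfam at -1.35, factors that act on mitochondrial DNA, while Ppargc1a, a coactivator of the pathway, was not well above background on any array. No gene of these 5 lists passed as higher against sham, and 0 passed between surviving and dying neurons, where their medians were 0.65, 0.81, 0.66, 0.64 and 0.38 in the order given.

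Marker genes of cell types were read from the same arrays. Of 11 markers of pyramidal neurons, 9 were found, and their summed scaled signal was 6597 and 9286 in naïve neurons, 12779 and 10785 in sham, 7379 and 7175 in surviving neurons and 4877 and 4401 in dying neurons, Nrgn being the most abundant. All 9 were above background on each array except Grik4 on dying replicate 1, with 3 of 9 lower in dying and 2 of 9 in surviving neurons against sham. Of named genes, 29.2% and 8.11% passed as lower in these comparisons, so that 3 of 9 is close to the share of all genes. The 14 microglia and macrophage markers summed to 166 and 338 in naïve neurons, 323 and 311 in sham, 554 and 594 in surviving neurons and 3100 and 1369 in dying neurons, led by C1qb. Of 13 tested, 9 passed as higher in dying neurons, and 1 of 14 in surviving neurons. In either direction, 41.5% of named genes passed in dying and 14.4% in surviving neurons against sham. These shares also stand beside the counts of the lists that follow.

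Dying replicate 1 had the highest sums for several other lists as well. Interneuron markers, led by Npy, summed to 741 and 834 in sham, 520 and 460 in surviving neurons and 2035 and 507 in dying neurons, with Gad1 below background on both dying arrays. Of 8 tested against sham, 0 passed as higher in either injured group. Those that passed as lower were 2 in surviving neurons, Gad1 and Reln, and 2 in dying neurons, Gad1 and Pvalb. Gad1 entered both tests only through the sham arrays, where its signal was higher. Endothelium and pericyte markers, led by Slc2a1, summed to 209 and 163 in sham, 159 and 126 in surviving neurons and 533 and 255 in dying neurons. Tek was above background nowhere, and Flt1 was above background on both arrays of each injured group and on neither sham array. Of 8 tested against sham, Flt1 passed as higher in surviving neurons and Flt1 and Vwf in dying neurons. Flt1 entered both tests only through the injured arrays, where its signal was higher. Leukocyte markers, led by Lcn2, summed to 27.0 and 21.8 in sham, 202 and 222 in surviving neurons and 545 and 241 in dying neurons. Of these 12 genes 6 were tested, and 5 passed as higher in dying neurons: Lcn2, Lyz, Cd3d, S100a8 and Cd8a. S100a8 and Cd8a entered that test only through the dying arrays, where their signal was higher. Genes not well above background on both arrays of either group were not tested. The count is therefore no measure of how many leukocyte markers rose. Lcn2 and Lyz, above background on all arrays, also passed as higher in surviving neurons. S100a8 was above background in injured rats only, Cd8a in dying neurons only and Cd2 nowhere.

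Astrocyte markers, led by Sparcl1, summed to 3006 and 2132 in sham, 1182 and 1052 in surviving neurons and 1561 and 997 in dying neurons, with 4 of 9 lower in dying and 2 in surviving neurons and S100b above background on no array of injured rats. Of oligodendrocyte markers, 4 of 8 tested passed as lower in dying and 3 in surviving neurons, and Ugt8 was above background nowhere. The sum over 8 of them, led by Mog, was 324 and 398 in sham, 70.5 and 78.5 in surviving neurons and 202 and 84.7 in dying neurons. The part of other cells in the values of the respiratory genes was not tested.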

How the data were processed

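Per the file headers, the processed intensities come from Agilent Feature Extraction 9.1.3.1, with background and trends removed and no normalization between arrays. The authors also deposited mean and local background intensities and marks of 0 or 1 for spots above background, non-uniform or saturated. The signal values of the deposited series table (array medians 0.218, 0.149, 0.131, 0.149, 0.256, 0.259, 0.212 and 0.282, naïve, sham, surviving, dying) equal processed signal over 1 constant per array. The methods name each array's median as the scale, which would put these medians at 1, so these constants are not those medians.

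Non-uniform spots were left out, arrays divided by their median, values floored at 0.01 and log2 taken. A linear model of 4 groups was fitted with limma 3.58.1 in R 4.3.3. A probe was tested when both arrays of either group had it well above background, two-sided, adjusted by Benjamini-Hochberg within a comparison at 0.05. Each gene was read from its brightest probe. Alternatives were 5 scalings and background corrections, the series values, non-uniform spots kept, a floor of 0.1, other filters, other probe choices, subunits only, only the 4 arrays compared, a replicate block and leaving out each array. Genes named are core subunits (1 is not reported here), tissue isoforms, the extremes of each complex and comparison, those past the threshold and those with opposing probes. Others, chosen after their values were seen, are the remaining calls, the bounded probes and those named from lists. Of 71 names, 45 were matched to current symbols by accession and 26 by symbol. Members and lists were chosen with earlier results of these data known. The 2 arrays per group limit precision.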

Additional observations from a re-analysis of the deposited data

Results flagged for a closer look

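In Atp5g1, a gene for the c subunit of the ATP synthase, the injured groups lay on opposite sides of the same sham arrays: surviving minus sham was 0.34 ± 0.49, with both surviving arrays above both sham arrays, and dying minus sham was -0.33 ± 0.60, with the 1 dying array that could be used below both. The difference between the groups was not tested, neither value passed as scaled here (adjusted p 0.647 and 0.674), and the spot on dying replicate 1 was left out as non-uniform. The opposite signs depend on the scaling: dying minus sham was 0.48 at the 75th percentile, 0.77 by quantiles, 0.77 with probes above background on all arrays and 0.90 after normexp, and -0.26 with RefSeq probes, while surviving minus sham was above 0 under each and passed at 1.32 (adjusted p 0.0218) with probes above background on all arrays. In the series values, which keep the spot left out here, dying minus sham was 0.05.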

How the results depend on the processing

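Of the values compared under alternatives, 251 of 270 in surviving against dying (15 genes), 87 of 126 in surviving against sham (7 genes), 200 of 234 in dying against sham (13 genes) and 103 of 108 in sham against naïve (6 genes) kept their direction and their side of the threshold. In dying against sham these are the 10 calls of smallest p, with Ndufs7, Cox6a2 and Ndufa11 from the upper end. So 12 weaker calls are not in that count, among them Cox8h (-3.13), which lay lower than Atp5b (-3.03). Ndufb7 (1.18), higher than Cox6a2 (0.64) and Ndufa11 (0.62), is not in it either. The causes of the exceptions below were not tested.

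The count of members past the threshold in surviving against sham, 4, was 7 (5 higher, 2 lower) when arrays were scaled to probes above background on all arrays, 0 after normexp, 9 with a floor of 0.1, 2 with probes above background on all 4 arrays, 10 with only the 4 arrays compared and 2 with a replicate block. Leaving out an array gave 0 to 9, 2 to 22 in dying against sham and 0 to 5 in surviving against dying, a lone array being assumed to vary like the other groups. Normexp gave 0 in dying against sham (22). The count past 2-fold, 5, was 2 after quantile normalization, 2 with RefSeq probes, 0 after normexp and 5 to 11 with an array left out.

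The median of surviving minus dying over all members, 0.33, was -0.02 with RefSeq probes, 1.77 after normexp and -0.13 to 0.67 with an array left out. In the same order, complex I had -0.04, 1.76 and -0.18 to 0.81, complex IV -0.23, 1.63 and -0.21 to 0.61 and the ATP synthase 0.11, 1.83 and 0.29 to 0.65, with 0.26 after quantile normalization. Complex II had 0.17 with RefSeq probes, 2.11 after normexp and 0.21 after quantile normalization, and complex III 2.55 after normexp and 0.71 to 2.0 with an array left out. Surviving minus sham had 0.16 with the 75th percentile, 0.04 by quantiles, 0.35 with probes above background, -0.81 with RefSeq probes and 0.46 after normexp. Dying minus sham had -0.35, -0.20 and -0.07 under the first 3 of these, and sham minus naïve -0.12 by quantiles, -0.11 with probes above background and 1.28 after normexp.

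Among genes in surviving minus dying, normexp reversed Ndufs7 (0.91), Uqcrb (1.49), Cox6a2 (1.01), Cox6b2 (0.17) and Atp5d (1.34), and RefSeq probes reversed Atp5g2 (-0.29). In surviving against dying, Uqcrb, near 0, was 0.05 with the 75th percentile, 0.0012 in the series values, 0.0028 with non-uniform spots kept and 0.43 as the mean of its probes. With an array left out, ranges crossed 0 in 5 of these 15 genes, Uqcrb (-0.72 to 0.71), Cox6a2 (-1.23 to 0.36), Cox6b2 (-2.19 to 0.32), Atp5d (-0.36 to 0.13) and Atp5g2 (-0.52 to 0.63), and in others of the report, such as Sdha (-0.09 to 0.44) and Cox5b (-0.13 to 0.92). Dying minus sham did so in Cox6a2 (-0.16 to 1.43), and sham minus naïve in Uqcrc1 (-0.70 to 0.12), Cox6c1 (-2.26 to 0.54) and Cox6b2 (-1.34 to 0.46), Uqcrc1 being 0.62 after normexp.

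Replicate numbers are shared by label alone. Correlations between groups of the differences between replicates, checked before the replicate block, were 0.009 for naïve and sham, -0.061 for naïve and surviving, 0.071 for naïve and dying, 0.05 for sham and surviving, 0.017 for sham and dying and -0.194 for surviving and dying over 15250 probes. In dying against sham the replicate block kept 18 of 22 genes.

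Signal over background limits 2 members, Ndufs1 and Cox8h, each with 1 dying array not well above background. The number of probes above background differed between arrays, from 20191 to 29345, and groups of 2 arrays give wide errors.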

Other observations

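The array also holds 10 probes for transcripts of mitochondrial DNA, chosen after their values were seen. In surviving against sham 8 of 10 passed as lower with a median of -2.25 (-3.71 to -0.70), and in dying against sham 8 of 10 with a median of -3.09 (-4.14 to -0.20), both against the same sham arrays on another slide. Of named genes, 8.11% and 29.2% passed as lower in these comparisons. The 10 probes were not compared under other scalings, which moved the median difference of named genes from sham by up to 0.97 and 1.01. Surviving against dying gave 0 past the threshold and a median of 0.45, and sham against naïve 0 and a median of 0.51. How these values relate to those of the nuclear genes was not tested.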
